A study of Rattus norvegicus with 9 samples.

Results

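Chemokines are small secreted proteins that steer white blood cells and other migrating cells along concentration gradients, and they act through G protein-coupled receptors on the target cell. Inflammatory members such as Ccl2 are induced at sites of injury, whereas homeostatic members such as Cxcl12 are made continuously and, in bone, help to retain haematopoietic cells in the marrow. Atypical receptors bind chemokines without signalling through G proteins and remove them from the surroundings. The 9 genes described here were taken by symbol from the deposited table of 19085 genes and comprise the CC ligands Ccl2, Ccl7 and Ccl20, the CXC ligands Cxcl10, Cxcl12, Cxcl14 and Cxcl16, the CX3C ligand Cx3cl1 (fractalkine) and the scavenger receptor Ackr3. Each symbol stood on 1 row, and all 9 genes had enough counts to be tested.

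Messenger RNA was sequenced from cultures of first-passage osteoblasts, taken from the skull of newborn (24 hours old) male Sprague-Dawley rats, in 3 groups of 3 libraries. All cells were kept for 7 days in osteogenic medium containing serum, β-glycerophosphate, ascorbic acid and dexamethasone, a glucocorticoid, which the control group received alone. Thrombin was added at 20 U/mL in the thrombin group, and the PD03 group had the same thrombin dose plus 0.1 μM PD0325901, called PD03 here, which blocks the kinase MEK. The PD03 dose is that of the series' design text, while a protocol in the labels for shorter treatments gives it as 0.1 mM. The labels name the knee as tissue, although their growth protocol names the skull. There was no group with PD03 alone, so PD03 was measured only in the presence of thrombin. The study describes the 3 libraries of a group as independent samples. Where they came from the same animals, the p-values measure only the spread between cultures.

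Total counts were 15447832 to 19841468 per library. Of 8 osteoblast markers, Col1a1 was abundant, and the lineage factors Runx2 and Sp7 had 509 to 906 and 59 to 122 counts per library. The other 5 were low: Alpl, which encodes the alkaline phosphatase of early osteoblasts, had 6 to 62 counts (means of 1.67, 0.345 and 3.11 CPM in the control, thrombin and PD03 groups), Phex 3 to 18, Bglap 1 to 5, Ibsp 0 to 1 and Dmp1 0 to 4. Levels are given below as CPM (counts brought to a common library size with edgeR's TMM method) and as mean ± SD over 3 libraries. Fold changes, with standard errors (SE), come from edgeR's quasi-likelihood test with Benjamini-Hochberg adjustment over 13256 tested genes, and a call needed an adjusted p-value below 0.05 together with a log2 fold change beyond 0.58 in either direction. In bulk RNA, fewer cells of a type and less RNA per cell cannot be told apart.

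The sequences upstream of the gene starts are shown first, because they differ in the short motifs they hold. RefSeq promoter sequences (GRCr8) were matched by symbol for 8 of the 9 genes. Ccl2 had no sequence in that set and was not searched. The 250 bases before the annotated start were searched on both strands for 4 motifs. These were the AP-1 site TGACTCA, a 10-base NF-κB consensus, the interferon-stimulated response element (ISRE) and the TATA box TATAAA. The 4 windows below are those with an AP-1 or NF-κB match. Capitals mark matches to the AP-1, NF-κB and interferon motifs.
Ccl7 (GRCr8, chr10:67513845-67514094, + strand): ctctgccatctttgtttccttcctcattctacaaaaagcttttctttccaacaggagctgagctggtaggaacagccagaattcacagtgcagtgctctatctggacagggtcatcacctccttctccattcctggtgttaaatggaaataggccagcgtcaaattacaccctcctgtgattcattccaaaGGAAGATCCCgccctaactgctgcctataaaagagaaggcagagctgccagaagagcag
Ccl20 (GRCr8, chr9:91836909-91837158, + strand): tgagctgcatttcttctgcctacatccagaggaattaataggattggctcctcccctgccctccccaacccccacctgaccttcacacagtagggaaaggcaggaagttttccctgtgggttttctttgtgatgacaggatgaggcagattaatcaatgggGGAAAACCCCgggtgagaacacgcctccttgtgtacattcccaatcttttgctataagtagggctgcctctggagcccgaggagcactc
Cxcl10 (GRCr8, chr14:15988816-15989065, + strand): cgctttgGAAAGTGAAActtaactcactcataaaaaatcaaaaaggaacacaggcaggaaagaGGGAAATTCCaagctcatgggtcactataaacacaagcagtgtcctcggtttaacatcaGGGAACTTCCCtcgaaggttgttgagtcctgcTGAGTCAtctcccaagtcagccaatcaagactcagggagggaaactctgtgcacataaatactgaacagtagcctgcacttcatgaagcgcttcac
Cxcl14 (GRCr8, chr17:8322900-8323149, + strand): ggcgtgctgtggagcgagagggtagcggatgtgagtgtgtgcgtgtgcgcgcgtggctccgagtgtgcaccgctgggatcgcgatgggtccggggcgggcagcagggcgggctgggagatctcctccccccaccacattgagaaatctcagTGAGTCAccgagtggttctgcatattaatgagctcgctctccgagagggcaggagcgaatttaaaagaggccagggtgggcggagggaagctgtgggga
The NF-κB consensus was found in 3 of the 8 windows and in 6.41% of all 27457 RefSeq promoter windows of this length, and the AP-1 site in 2 of the 8 and in 3.98% of all windows. Cxcl10 held the most varied set, with an interferon motif from -243 to -234 (present in 3.29% of all windows), NF-κB matches from -187 to -178 and from -128 to -118, the latter being a pair of overlapping matches on opposite strands, and an AP-1 site from -96 to -90, counted from the gene start. Cxcl14 had an AP-1 site at nearly the same distance, from -99 to -93. Ccl7 had an NF-κB match from -59 to -50 and Ccl20 from -89 to -80. TATAAA occurred in 4 of the 8 windows (Ccl7, Cxcl10, Cx3cl1 and Ackr3) and in 13.1% of all. A match is a description of the letters only, and binding was not measured.

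Compared per gene length, on the authors' FPKM scale (reads scaled to gene length and library size), the 9 transcripts spanned more than 3 orders of magnitude. Ccl2, the main attractant of monocytes, was the most abundant in every group, at 973 ± 19.2 FPKM in the control group (n = 3), 1331 ± 45.5 FPKM with thrombin and 762 ± 67.5 FPKM with PD03. Ccl7, a second monocyte attractant, followed at 567 ± 32.8 FPKM in the control group. Cxcl12 (197 ± 2.08 FPKM) and Ccl20 (117 ± 11.3 FPKM) came next in the control group. In the thrombin group these last genes were not separated, since the Ccl20 libraries (108 to 119 FPKM) overlapped the Cxcl12 libraries (105 to 109 FPKM). Cxcl14, Ackr3 and Cxcl16 held the middle of the order at 30.9 ± 1.10, 21.5 ± 0.786 and 11.3 ± 0.453 FPKM in the control group. With thrombin, Cxcl16 moved ahead of Cxcl14 and Ackr3, and those latter transcripts overlapped each other. Cxcl10 (2.22 ± 0.497 FPKM) and Cx3cl1 (0.676 ± 0.232 FPKM) were at the bottom of the control order and overlapped in the PD03 libraries at 0.306 ± 0.135 and 0.303 ± 0.0465 FPKM.

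**Figure D1:**
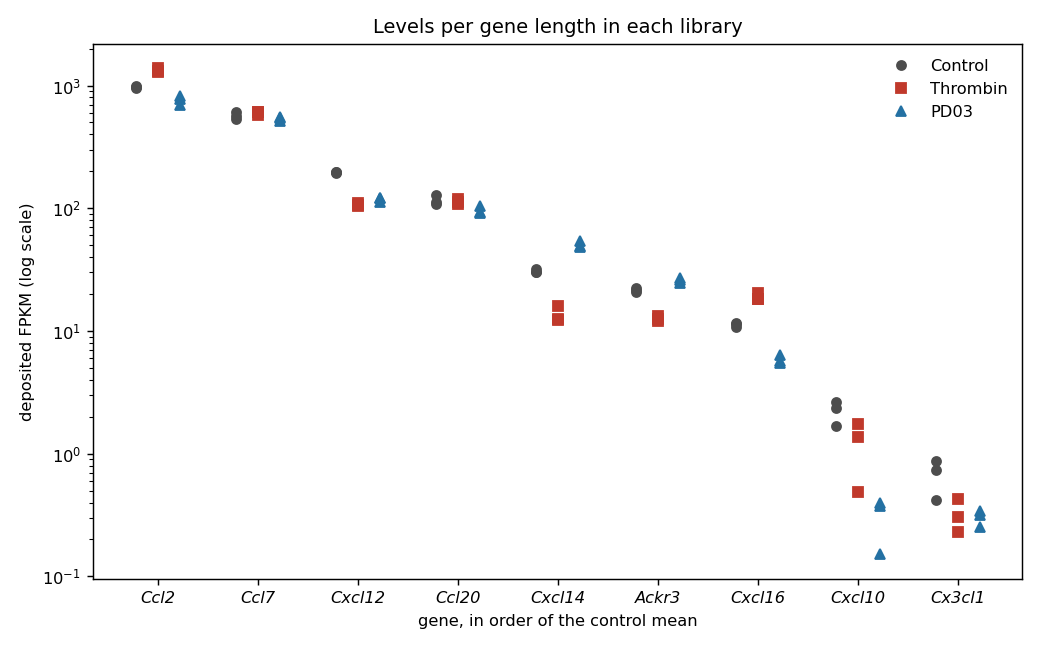
Deposited FPKM of the 9 genes in each of the 9 libraries, on a log axis, with genes ordered by the control mean; each point is 1 library. Ccl2 and Ccl7 lie above all other genes in every group, and Cxcl10 and Cx3cl1 lie below all others.

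Together the 9 genes took 0.299% to 0.309% of all counts in the control libraries, 0.256% to 0.265% in the thrombin libraries and 0.214% to 0.238% in the PD03 libraries, so that the groups did not overlap. These shares depend on the rest of the library, in which Col1a1 alone took 6.78% to 6.96% of counts in the PD03 group and 4.18% to 5.05% in the other 6 libraries. They also join genes that moved in different directions. Cxcl12 had 22036 to 25702 counts in the control libraries and 12703 to 14352 with thrombin. Ccl2 had 11561 to 13737 and 17042 to 18287 in the same groups.

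The first comparison asked how thrombin alone changed these transcripts. Of the 9 genes, 6 were called, beside 8.06% of all tested genes. The 9 genes were chosen with earlier results of these data known, so the shares here and below are background and not a test. Cxcl16 was the 1 gene called higher (2.62% of all genes), and Cxcl10, Cxcl12, Cxcl14, Cx3cl1 and Ackr3 were the 5 called lower (5.44% of all genes). Without regard to fold, 7 passed the p-value threshold, as did 28.7% of all genes. Thrombin and control libraries did not overlap for 5 of the 9 genes (40.3% of all genes), with 2 higher (20.1%) and 3 lower (20.2%). The median log2 fold change of the 9 was -0.75, beside -0.0060 over all tested genes.

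The second comparison asked what the MEK inhibitor changed in the presence of thrombin. It called 5 of the 9 genes, beside 15.9% of all genes, with Cxcl14 and Ackr3 higher (2 genes; 9.61% of all) and Ccl2, Cxcl10 and Cxcl16 lower (3 genes; 6.31% of all). Cxcl10 passed the count filter only with the control libraries included. Without regard to fold, 7 of the 9 genes passed the p-value threshold, a share to be read beside 49.8% of all genes. The libraries did not overlap for 6 genes (55.5% of all), 3 of them higher (28.4%) and 3 lower (27.1%), and the median of the 9 was -0.059 beside 0.011.

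Against control, the PD03 group had 5 genes called, beside 8.97% of all genes. Cxcl14 was called higher (1 gene; 4.9% of all), and Cxcl10, Cxcl12, Cxcl16 and Cx3cl1 were called lower (4 genes; 4.07% of all). The p-value threshold alone was passed by 8 (39.9% of all genes), and libraries did not overlap for 7 (47.8%), 2 higher (23.7%) and 5 lower (24%). The median of the 9 was -0.24 beside -0.0039. Each group enters 2 of these comparisons, so they are not independent of each other. The share of higher genes among all calls depended on the scaling, being 60.4% for PD03 against thrombin and 54.6% for PD03 against control after TMM scaling, and 46.5% and 34.1% with library totals.

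**Figure D2:**
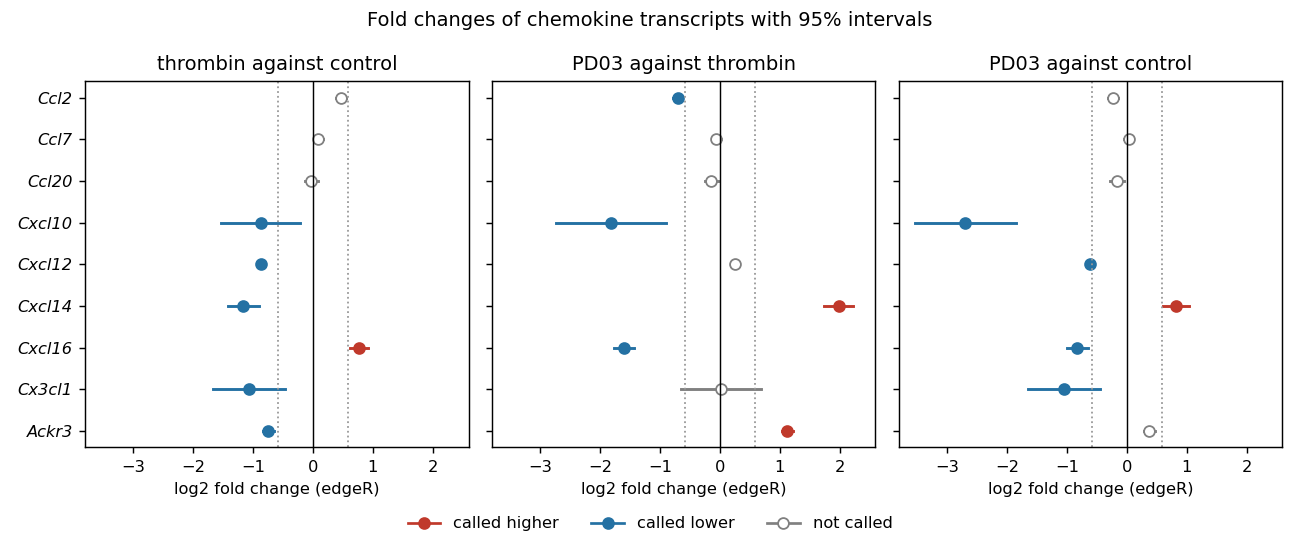
Log2 fold changes of the 9 genes in the 3 comparisons (x axis, edgeR after TMM scaling) with 95% intervals; filled points were called, open points were not, and dotted lines mark the fold threshold of 0.58. Cxcl14 and Ackr3 lie left of 0 with thrombin and right of 0 with PD03 against thrombin, Cxcl16 does the opposite, and Cxcl10 lies left of 0 in all 3 comparisons.

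Among the CC ligands, Ccl2 (ENSRNOG00000007159) stood at 747, 730.0 and 743 CPM in the control libraries, 1014, 995 and 1066 CPM in the thrombin libraries and 567, 674 and 644 CPM in the PD03 libraries. All 3 thrombin libraries were above, and all 3 PD03 libraries below, every control library. Its log2 fold change with thrombin was 0.47 (SE 0.040, adjusted p = 6.7e-13), past the p-value threshold but short of the fold threshold, so that it was not called. With PD03 it fell by 0.71 on the log2 scale against thrombin (SE 0.040, adjusted p = 9.4e-19) and stood 0.24 below control on that scale (log2 fold change -0.24, adjusted p = 5.6e-06, not called). Measured on the linear scale, the PD03 group had 61.3% of the Ccl2 level of the thrombin group.

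Ccl7 (ENSRNOG00000000239), whose product shares the receptor Ccr2 with Ccl2, had 471, 427 and 446 CPM in the control libraries, 484, 462 and 485 CPM with thrombin and 439, 471 and 464 CPM with PD03. The libraries of each pair of groups overlapped. The log2 fold change was 0.090 with thrombin (95% interval 0.014 to 0.17, adjusted p = 0.068) and -0.059 with PD03 against thrombin (95% interval -0.13 to 0.017, adjusted p = 0.19). For PD03 against control the direction of Ccl7 was not fixed, at 0.031 with TMM scaling and -0.085 with library totals, neither called; that change of scaling moved the median of all genes by a similar amount, to -0.12.

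In the RefSeq gene order of GRCr8, Ccl7 lies next to Ccl2 with no protein-coding gene between them, followed by Ccl11 and Ccl12. Ccl11, also called eotaxin after the eosinophils it attracts, was the gene of largest change among the other chemokine ligands. It had 87, 56 and 61 counts in the control libraries, 10, 7 and 14 with thrombin and 60, 36 and 42 with PD03, and thrombin lowered it by a log2 fold change of -2.76 (SE 0.29, adjusted p = 2.6e-10), and PD03 raised it again by 2.18 (SE 0.31, adjusted p = 1.0e-07). The 3 neighbouring genes thus gave 3 different patterns, with Ccl2 above control in the thrombin libraries, Ccl7 overlapping it and Ccl11 below it. The ratio of Ccl2 to Ccl7 within a library, which does not depend on how libraries are scaled, was 1.65 to 1.77 in the control group, 2.18 to 2.28 in the thrombin group and 1.34 to 1.49 in the PD03 group. These ratios did not overlap between groups, but the pair was chosen after its values were seen and the ratio was not tested.

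Ccl20 (ENSRNOG00000015992), the ligand of Ccr6 that attracts lymphocytes and dendritic cells, had 117, 98.8 and 104 CPM in the control libraries, 99.7, 104 and 110 CPM with thrombin and 89.9, 103 and 91.9 CPM with PD03. The groups overlapped throughout. With thrombin the log2 fold change was -0.027 (95% interval -0.14 to 0.085, adjusted p = 0.77), which turned to 0.048 without Control replicate 1 and 0.0096 without Thrombin replicate 1. With PD03 it was -0.14 against thrombin (adjusted p = 0.034) and -0.17 against control (adjusted p = 0.015), both below the fold threshold and not called. Under PD03, Ccl20 was therefore lower by a margin smaller than the fold threshold, and its highest PD03 library lay within the range of the other groups.

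**Figure D3:**
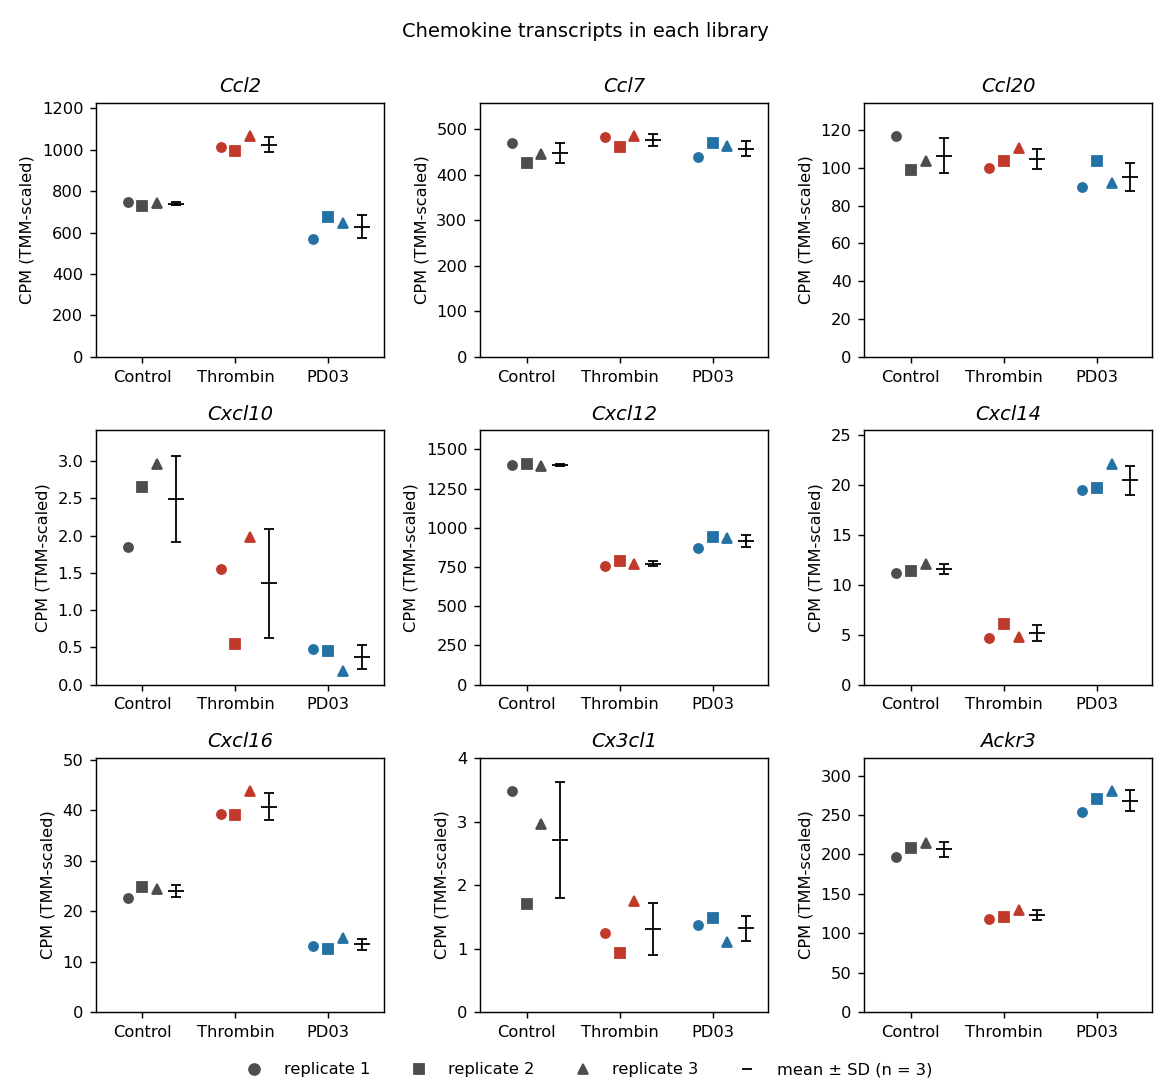
CPM after TMM scaling of each of the 9 genes in every library (y axes start at 0), with the mean ± SD of 3 libraries beside the points. Thrombin libraries are highest for Ccl2 and Cxcl16 and lowest for Cxcl14 and Ackr3, Cxcl12 is below the control libraries in both treated groups, and Ccl7 and Ccl20 overlap between groups.

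Of the CXC ligands, Cxcl16 (ENSRNOG00000026647) is made as a membrane-anchored protein that both binds cells carrying Cxcr6 and, once cut off, attracts them. It had 22.6, 24.8 and 24.4 CPM in the control libraries, 39.3, 39.0 and 43.8 CPM with thrombin and 13.2, 12.6 and 14.6 CPM with PD03. No library of a group overlapped those of another. Cxcl16 rose with thrombin (log2 fold change 0.77, SE 0.076, adjusted p = 4.7e-11), fell with PD03 against thrombin (-1.60, SE 0.082, adjusted p = 3.3e-20) and was also lower than in the control group (-0.83, adjusted p = 1.8e-10). When the change was tested against the fold threshold itself (glmTreat), the rise with thrombin was not called (adjusted p = 0.057). Ccl2 and Cxcl16 were the 2 genes of the 9 with their highest libraries in the thrombin group and their lowest in the PD03 group.

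Because macrophages also make Ccl2 and Cxcl16, myeloid markers were summed in the same libraries. The 11 markers together reached 22.2 to 25.2 CPM in control libraries, 30.3 to 34.4 CPM under thrombin and 18.5 to 20.6 CPM under PD03. Of the 11, 9 stayed under 1 CPM in every group mean, and Cd14 carried most of the sum with means of 20.5, 29.3 and 15.7 CPM. Csf1r, the receptor for the macrophage growth factor, had 5 to 26 counts per library and means of 0.440, 0.746 and 1.24 CPM, highest with PD03 and so in another order than Cd14. The pan-leukocyte marker Ptprc had 0 to 6 counts and the other 8 markers 0 to 17. What part macrophages had in the Ccl2 and Cxcl16 levels was not tested. The summed lymphocyte markers reached at most 0.518 CPM in any library, from 3 of 7 listed genes.

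Cxcl14 (ENSRNOG00000011984), a homeostatic chemokine of epithelia and connective tissue, had the opposite pattern. Its levels were 11.2, 11.4 and 12.1 CPM in the control libraries, 4.64, 6.09 and 4.72 CPM with thrombin and 19.5, 19.8 and 22.2 CPM with PD03. No libraries overlapped between groups, and the order was PD03 above control above thrombin. With thrombin Cxcl14 fell by 1.16 in log2 units (SE 0.13, adjusted p = 5.9e-10), rose by 1.98 with PD03 against thrombin (SE 0.12, adjusted p = 4.7e-18) and lay 0.82 above control (adjusted p = 2.1e-08). Of the 9 genes, Cxcl14 had the largest rise under PD03, to 3.96 times the thrombin level. Against control, the rise was not called when tested against the fold threshold itself (glmTreat, adjusted p = 0.083).

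Cxcl12 (ENSRNOG00000013589), the ligand of Cxcr4 and of Ackr3 that retains stem cells and lymphoid precursors in bone marrow, was measured with 12703 to 25702 counts per library. It had 1398, 1409 and 1392 CPM in the control libraries, 756, 787 and 768 CPM with thrombin and 869, 939 and 932 CPM with PD03. Both treated groups lay far below the control libraries, and the PD03 libraries were all above the thrombin libraries. The log2 fold change was -0.86 with thrombin (SE 0.033, adjusted p = 2.4e-24) and -0.62 with PD03 against control (SE 0.033, adjusted p = 1.9e-19), both called. Against thrombin, PD03 gave 0.25 (95% interval 0.18 to 0.31, adjusted p = 3.2e-08), short of the fold threshold. Thrombin left 55.0% of the control level of Cxcl12, and thrombin with PD03 left 65.3%. The call against control lay close to the threshold and was not made when tested against the fold threshold itself (glmTreat, adjusted p = 0.74).

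Ackr3 (ENSRNOG00000019622), formerly Cxcr7, is the scavenger receptor that takes up Cxcl12. It had 196, 208 and 215 CPM in the control libraries, 118, 121 and 130 CPM with thrombin and 254, 270.3 and 280.2 CPM with PD03. Every thrombin library was below, and every PD03 library above, all control libraries. Ackr3 fell with thrombin (log2 fold change -0.75, SE 0.045, adjusted p = 1.2e-17) and rose with PD03 against thrombin (1.13, SE 0.045, adjusted p = 3.4e-24). Against control it was 0.38 higher (adjusted p = 1.2e-09), below the fold threshold. Thrombin left 59.5% of the control level of Ackr3, beside the 55.0% of Cxcl12, and of the pair only Ackr3 was called higher with PD03 than with thrombin; the difference between their changes was not tested. The ratio of Cxcl12 to Ackr3 within a library, on the FPKM scale, was 8.75 to 9.62 in the control group, 7.99 to 8.81 in the thrombin group and 4.50 to 4.69 in the PD03 group. Control and thrombin ratios overlapped, and all 3 PD03 ratios were below them. This pair was also chosen after its values were seen, and no test was made.

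**Figure D4:**
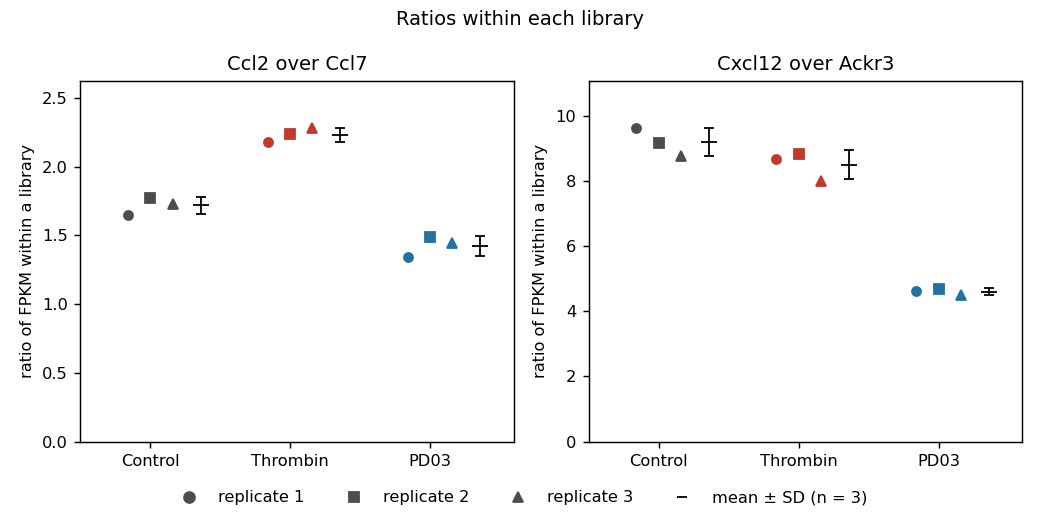
Ratio of FPKM values within each library for Ccl2 over Ccl7 (left) and Cxcl12 over Ackr3 (right), with the mean ± SD of 3 libraries. The Ccl2 to Ccl7 ratio is 2.23 ± 0.0518 in the thrombin group and 1.42 ± 0.0751 in the PD03 group, and the Cxcl12 to Ackr3 ratio drops to 4.60 ± 0.100 in the PD03 group.

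Cxcl10 (ENSRNOG00000022256), an interferon-induced attractant of T cells carrying Cxcr3, was close to the lower limit of these libraries, with 34, 42 and 47 counts in the control group, 26, 10 and 34 with thrombin and 9, 7 and 3 with PD03. In CPM this was 2.49 ± 0.577, 1.36 ± 0.735 and 0.371 ± 0.163. The PD03 libraries were below all others, while the thrombin and control libraries overlapped. PD03 lowered Cxcl10 against thrombin (log2 fold change -1.83, SE 0.45, adjusted p = 8.1e-04) and against control (-2.70, SE 0.42, adjusted p = 8.9e-07). The call with thrombin against control (-0.87, SE 0.33, adjusted p = 0.041) was weak: it rested on Thrombin replicate 2, without which the log2 fold change was -0.48 (adjusted p = 0.33). It was also lost without Thrombin replicate 1 (adjusted p = 0.054), Control replicate 2 (adjusted p = 0.12) or Control replicate 3 (adjusted p = 0.18), and with DESeq2 (adjusted p = 0.097). Cxcl10 was the only one of the 9 genes with a called fall in both steps, the first of them weak. The call with PD03 was kept with each library left out in turn. In a model of the thrombin and PD03 libraries alone, Cxcl10 did not pass the count filter and was not tested. Its test against thrombin thus depended on the counts of the control libraries. The falls against control share that limit, because the control libraries, where its counts were highest, carried it past the filter. Leaving out 1 library at a time does not remove this limit. On the log2(FPKM + 1) scale its changes with PD03 were smaller, at -0.71 against thrombin and -1.30 against control, and were still called.

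Other interferon response genes were examined beside it. Of 14 listed, 8 were tested. Thrombin lowered 4 (5.44% of all genes), while the other 4 were not called (median log2 fold change of the 8, -0.58). Against thrombin, PD03 raised 3 (9.61% of all genes), while the other 5 were not called (median 0.45, beside 0.011 over all genes). Ifit2, an antiviral protein that binds foreign RNA, averaged 32.7 ± 1.70 CPM without thrombin, 17.7 ± 1.73 with it and 28.0 ± 3.50 with PD03 added (adjusted p = 4.1e-11 and 4.0e-08 for the 2 steps). The call of Cxcl10 under PD03 was thus opposite in sign to those of the 3 genes raised. Of those 3, Ifit1 had only 3 to 21 counts per library (adjusted p = 0.047). The 5 that were not called ran from -0.87 to 1.07 for PD03 against thrombin and so went in both directions. Cxcl11 and Cxcl9, which flank Cxcl10 in the RefSeq order and were picked out for that, were low, at 5 to 28 and 0 to 1 counts per library. Cxcl11 was tested and not called in any comparison, with a log2 fold change of 0.99 for PD03 against thrombin (adjusted p = 0.076). Cxcl9 was not tested.

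Cx3cl1 (ENSRNOG00000016326), or fractalkine, a membrane-bound chemokine that tethers monocytes and other Cx3cr1-bearing cells, had 64, 27 and 47 counts in the control libraries, 21, 17 and 30 with thrombin and 26, 23 and 18 with PD03. Means were 2.72 ± 0.914, 1.31 ± 0.412 and 1.32 ± 0.200 CPM. The lowest control library (1.70 CPM) was just below the highest thrombin library (1.75 CPM), so those groups overlapped. Cx3cl1 was called lower with thrombin (log2 fold change -1.06, SE 0.30, adjusted p = 0.0053) and with PD03 against control (-1.05, SE 0.30, adjusted p = 0.0044). Both calls were lost without Control replicate 1 (adjusted p = 0.068 and 0.056). Between PD03 and thrombin the log2 fold change was 0.019, with a 95% interval from -0.65 to 0.69 (adjusted p = 0.97); no change was detectable at this depth, and the sign turned with library totals (-0.079). Cxcl12 and Cx3cl1 were thus the 2 genes that were called lower than control both with thrombin and with thrombin plus PD03, and were not called between them.

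Apart from Ackr3, which had 1979 to 4800 counts per library, few receptors for these ligands were measured in the same cells. Of 22 other listed chemokine receptors 14 had a row and 3 were tested. Ccr6, the receptor of Ccl20, had no row. Of the 3 tested, Ccr7, the homing receptor of lymphocytes and dendritic cells, was called lower with thrombin (5.44% of all genes). It went from 2.32 ± 0.631 to 1.23 ± 0.500 CPM (adjusted p = 0.025), with 13 to 56 counts per library. The signalling receptors Ccr2, Cxcr3, Cxcr4, Cxcr6 and Cx3cr1, which bind ligands described here, had few counts in any library, with 0 to 2 for Ccr2, 1 to 13 for Cxcr3, 0 to 7 for Cxcr4, 1 to 5 for Cxcr6 and 0 to 2 for Cx3cr1. The scavenger Ackr4 had 317 to 480 counts and was not called, its log2 fold change being -0.28 for thrombin over control and -0.14 for PD03 over thrombin. Of 21 other chemokine ligands 15 had a row and 4 were tested, and Ccl11 was called lower with thrombin and higher with PD03, while Ccl6, at 2 to 17 counts per library, was called lower with PD03 against thrombin (adjusted p = 0.015).

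Genes that process or anchor chemokines were followed as a further list of 11, all tested. Thrombin raised 1 and lowered 1 of them (2.62% and 5.44% of all genes). Against thrombin, PD03 raised 1 and lowered 1 (9.61% and 6.31% of all genes). The medians were 0.050 and -0.012. Dpp4, a surface protease that cuts the end from Cxcl12 and Cxcl10 and thereby inactivates them, had 347, 287 and 234 counts in the control libraries, 29, 25 and 31 with thrombin and 660, 513 and 496 with PD03. With thrombin Dpp4 fell by 3.40 in log2 units (SE 0.15, adjusted p = 1.9e-22) and rose by 4.33 with PD03 (SE 0.14, adjusted p = 8.1e-28), and no libraries overlapped between groups. Tpst2, which sulfates tyrosines of chemokine receptors, was called higher with thrombin (log2 fold change 0.75, adjusted p = 1.7e-14). The sheddases Adam10 and Adam17, which release Cxcl16 and Cx3cl1 from the membrane, were not called with thrombin (log2 fold changes -0.14 and -0.041) or with PD03 against it (0.058 and -0.24).

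**Figure D5:**
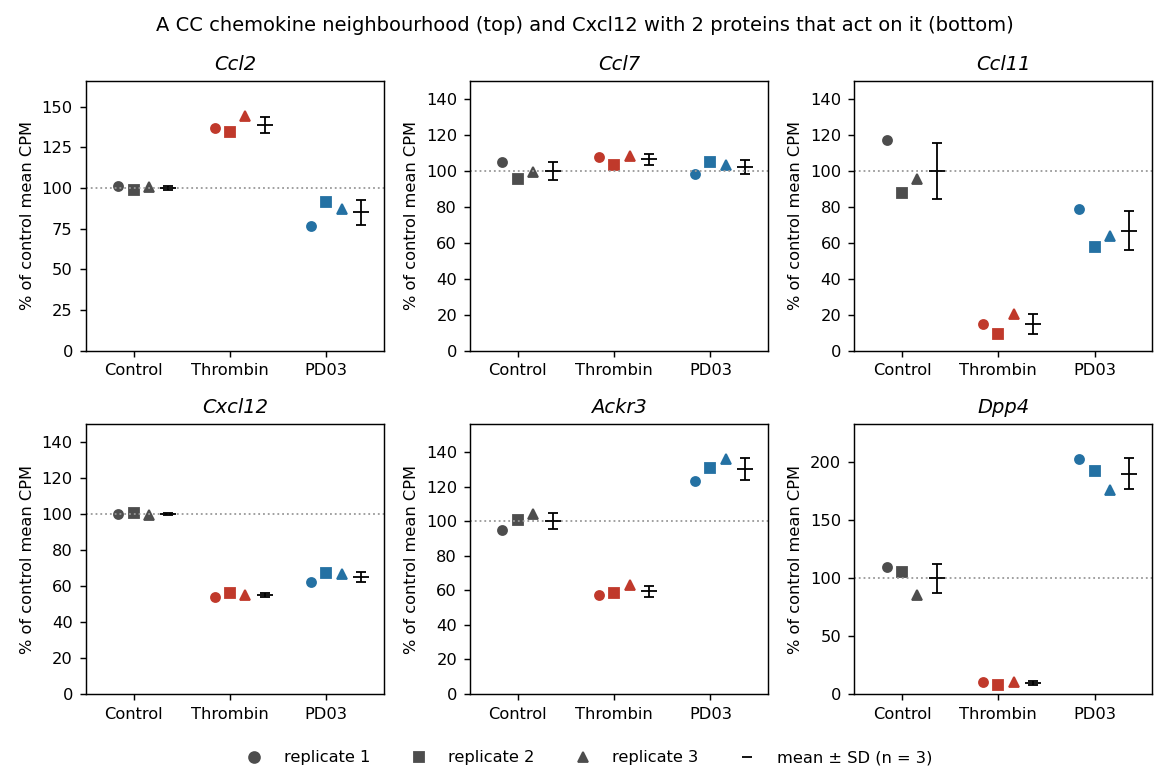
Level in each library as a percentage of the control mean CPM (dotted line at 100) for the neighbours Ccl2, Ccl7 and Ccl11 (top) and for Cxcl12, its scavenger Ackr3 and the protease Dpp4 (bottom), with the mean ± SD of 3 libraries. Ccl11 and Dpp4 are at 20.2% or less of control in every thrombin library, and Cxcl12 stays between 54.0% and 67.1% in both treated groups.

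Readouts of the inhibited pathway and of NF-κB were measured in the same libraries. Of 15 genes that are typically induced by ERK, the kinase below MEK, 11 were called lower with PD03 against thrombin (6.31% of all genes). The other 4 were not called, and the median log2 fold change of the 15 was -1.03. With thrombin, 2 were called higher (2.62% of all genes). Egr1 averaged 339 ± 45.4 CPM without thrombin, 243 ± 68.7 with it and 18.7 ± 1.33 with PD03 (adjusted p = 1.7e-27 for PD03 against thrombin). Of 10 feedback genes of NF-κB, all had log2 fold changes between -0.53 and 0.47 with thrombin, short of the fold threshold. With PD03 against thrombin, Tnfaip3 was called higher (0.92) and Birc3 lower (-0.82), with a median of -0.28 over the list. The rest of the list was not called, with log2 fold changes from -0.45 to 0.23. Most of these were negative and past the p-value threshold, which 49.8% of all genes passed in either direction. Of the chemokines with an NF-κB match in their upstream window, Ccl7 and Ccl20 were not called in any comparison. Cxcl10 was called lower in each comparison, weakly so with thrombin. Ccl2 had no window, and a link between matches and levels was not tested.

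The genes whose pair of log2 fold changes (thrombin against control, PD03 against thrombin) lay nearest to each member were listed among 12205 genes with a symbol and at least 1 CPM in some group, as a description. Nearest to Ccl2 were Slc6a9 (0.47 and -0.71) and Ripk3 (0.49 and -0.71), and nearest to Cxcl16 was Dnai2 (0.76 and -1.67). Around Cxcl14 lay Rgcc (-1.14 and 2.00) and Prg4 (-1.19 and 2.00), the latter encoding the joint lubricant lubricin. Ackr3 was nearest to Aph1b (-0.73 and 1.09) and Itgbl1 (-0.77 and 1.17), and Cxcl12 to Uba7 (-0.87 and 0.24) and Fyb1 (-0.87 and 0.28). Cx3cl1 had Spon1 (-1.04 and 0.019) beside it. For Cxcl10 the nearest was Mmp12 (-0.77 and -1.82) at a distance of 0.10, and then Il16 at 0.36. The standard errors of the Cxcl10 changes (0.33 and 0.45) were larger than the distance to Mmp12.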

How the data were processed

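Messenger RNA of 9 osteoblast cultures was sequenced, 3 each in the control, thrombin and PD03 groups, which were assigned from the sample titles. The authors trimmed reads with fastp, aligned them with HISAT2 and counted them per gene, and they deposited raw counts and FPKM values for 19085 genes, of which 2048 have no symbol. The paper names featureCounts and an older rat assembly, whereas the submitters' processing notes name HTSeq 0.13.5 and mRatBN7.2; the sources used here do not give the strand setting or annotation release. Tests used edgeR 4.0.16 in R 4.3.3, with DESeq2 1.42.0 and limma 3.58.1 as alternatives. Genes passing filterByExpr (minimum count 10) were scaled by TMM and fitted in 1 quasi-likelihood model over all 9 libraries, which totalled 15447832 to 19841468 counts; standard errors (SE) were taken from the F statistic. The deposited FPKM values served to compare levels between genes and, on the log2 scale with 1 or 0.1 added, as an alternative. The procedure was tested on simulated data. No library repeated another: within groups the chi-square of counts was 1.82 to 3.99 times its degrees of freedom.

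The 9 genes and the gene lists were chosen with earlier results of these data known. Named are the 9 genes, up to 2 called genes of largest change per list (other ligands, receptors, processing genes, interferon, NF-κB and ERK genes), the nearest genes by fold-change pair, and, chosen after their values were seen or for their known role, Ccl6, Cxcl9, Cxcl11, Ackr4, Adam10, Adam17 and the receptors of the ligands. Marker lists covered osteoblasts (summed 41160 to 73175 CPM over the libraries, nearly all Col1a1), myeloid cells, lymphocytes, endothelial cells (7.35 to 14.1 CPM) and osteoclasts (99.0 to 178 CPM, mostly Ctsk). RefSeq sequences are from GRCr8. Plots used matplotlib 3.10.9 under Python 3.11.15.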

Additional observations from a re-analysis of the deposited data

How the results depend on the processing

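Fold changes were recomputed under 22 alternatives, or 20 to 21 for the low-count genes. For thrombin against control, the genes called higher and lower (1 and 5) became 0 and 2 with a log2 fold change above 1 required. They became 0 and 3 with glmTreat. With no fold threshold 2 were higher, and 3 were lower among the 7 genes with a mean count of at least 50. Only 4 were lower with DESeq2 and from FPKM with 1 or 0.1 added. The same count of 4 came without Control replicate 1, 2 or 3, or Thrombin replicate 1 or 2, each left out alone. For PD03 against control (1 and 4), the counts became 0 and 2 with a log2 fold change above 1, and also with glmTreat. With no fold threshold 2 were higher and 6 lower, and 2 were lower with a mean count of at least 50. From FPKM with 1 added, or without Control replicate 1, 3 were lower. The filter at 50 removes Cxcl10 and Cx3cl1 from the test. For PD03 against thrombin (2 and 3), no count moved by more than 1.5 times. Still, 2 genes were lower with a log2 fold change above 1 required, where the Ccl2 call was lost. Likewise 2 were lower with a mean count of at least 50, and with only the thrombin and PD03 libraries in the model. In those last settings Cxcl10 was not tested. With no fold threshold, 3 were higher and 4 lower. Signs turned only where no call was made: for Ccl20 with thrombin (-0.073 to 0.048 with 1 library left out), for Cx3cl1 with PD03 against thrombin (-0.079 with library totals, -0.018 and -0.043 from FPKM with 1 or 0.1 added, -0.19 to 0.28 with 1 library left out) and for Ccl7 with PD03 against control (-0.085, -0.083, -0.084 and -0.0090 to 0.069, in the same order). From FPKM with 1 added, Cx3cl1 was not called lower with thrombin or with PD03 against control (-0.34 and -0.35), and the falls of Cxcl10 with PD03 shrank to -0.71 against thrombin and -1.30 against control. Over all genes, 1068, 2110 and 1189 were called in the 3 comparisons, 3808, 6608 and 5289 with no fold threshold, 505, 935 and 519 above 1, 460, 1051 and 499 with glmTreat, and 543, 1254 and 676 from FPKM with 1 added. Replicate numbers did not pair the libraries (correlation of deviations -0.043 to 0.083 over 9 pairs, with 3 of 9 libraries closest to their own number), and with the number as a block 1 and 5, 2 and 3, and 1 and 4 of the genes were called higher and lower, as without it, and 1067, 2103 and 1187 genes overall. Depth limits Cxcl10 and Cx3cl1, which had 3 to 64 counts per library.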
